A study of Mus musculus with 10 samples.

Results

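IGHV1-26 and IGHV1-64 are 2 heavy-chain variable genes of the large mouse IGHV1 family, and they are described here across 10 B cell receptor repertoires of deep cervical lymph nodes. Their members are the productive heavy-chain sequences whose V call names only IGHV1-26 (13192 sequences) or only IGHV1-64 (12629 sequences), of 313384 productive heavy-chain sequences and 113 IGHV names in all. Calls that join either gene with another gene were left out (36 and 38 productive sequences). The pair was chosen by its high share of clonotypes over these same mice, so the height of use is a description without a test. The mice were wild-type C57BL/6 animals with GL261 cells, a mouse glioma line, injected into the brain. They were given an isotype control IgG (5 mice) or an antibody against CTLA-4 (5 mice), an inhibitory receptor of T cells, and the nodes were taken at day 20. All 10 mice carried tumour cells, so no tumour-free group enters any comparison. Each library came from RNA of all node cells of 1 mouse, without sorting of B cells, so fewer cells of a class and less receptor RNA per cell cannot be told apart.

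A heavy-chain gene is assembled in each B cell from a V, a D and a J segment, with bases trimmed and added at the joints. The joint encodes CDR3, while the V segment alone encodes CDR1 and CDR2, the other loops that touch antigen. A naive B cell makes IgM and IgD from the same rearrangement. After activation it can switch to IgG, IgA or IgE and can gain point mutations in the V segment, and cells that secrete antibody hold far more receptor RNA than resting cells. IGHV1 genes are the most numerous V genes of this mouse strain.

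The germline V segments as given by the deposited germline alignments are shown because the pair differs in the loops as well as in the framework. Capitals mark the bases at which the genes differ.
IGHV1-26: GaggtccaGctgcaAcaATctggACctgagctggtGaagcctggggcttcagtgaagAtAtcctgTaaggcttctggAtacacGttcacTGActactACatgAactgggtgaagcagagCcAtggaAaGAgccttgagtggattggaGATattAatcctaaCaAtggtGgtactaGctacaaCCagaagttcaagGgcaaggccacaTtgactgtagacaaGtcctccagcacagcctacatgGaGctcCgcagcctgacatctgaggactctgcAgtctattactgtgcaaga
IGHV1-64: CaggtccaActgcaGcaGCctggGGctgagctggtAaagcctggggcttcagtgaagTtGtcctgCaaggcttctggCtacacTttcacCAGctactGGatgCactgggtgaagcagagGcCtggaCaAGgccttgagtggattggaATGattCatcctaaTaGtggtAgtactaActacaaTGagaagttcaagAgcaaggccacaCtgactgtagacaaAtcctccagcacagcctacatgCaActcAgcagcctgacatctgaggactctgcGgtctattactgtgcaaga

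Of 294 bases, 41 differed, an identity of 86.1%, and 20 of 98 codons encoded another amino acid. CDR1 was the least alike, with 7 of 24 bases different. CDR2 had 4 of 24 different bases. The last 9 bases of the V segment, which start the junction (CDR3 with the codon at either side), were the same. Each gene had closer relatives than the other member. Over the first 285 bases, IGHV1-26 shared 97.2% with IGHV1-18, and IGHV1-64 shared 95.8% with IGHV1-72, among 47 other IGHV1 genes compared. In the GRCm38.p6 gene table, IGHV1-26 lies between IGHV1-24 and IGHV1-31, and IGHV1-64 between IGHV1-63 and IGHV8-11, with 26 V genes between the pair.

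The libraries held 23685 to 46107 productive heavy-chain sequences with a total deposited count of 159157 to 362445 per mouse. Sequences of a mouse with equal V call, J gene, junction and constant gene were counted as 1 clonotype, and each library gave 20951 to 41435 clonotypes. IGHV1-26 formed 12215 clonotypes and IGHV1-64 formed 11822.

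Both genes stood among the most used in every mouse. IGHV1-26 took 4.59%, 4.31%, 4.22%, 4.65% and 4.03% of clonotypes in isotype mice 1 to 5. In anti-CTLA-4 mice 1 to 5 it took 4.40%, 3.73%, 4.33%, 4.25% and 4.41%. Mouse 2 of the treated group was the lowest, and the groups overlapped. IGHV1-64 took 4.20%, 4.36%, 4.28%, 4.28% and 4.17% in isotype mice 1 to 5, against 4.00%, 3.91%, 4.08%, 4.12% and 3.99% in the treated mice. Here every treated mouse lay below every isotype mouse, by a small margin. Among genes named alone in the V call, IGHV1-26 ranked between 1 and 5 in the 10 mice and IGHV1-64 between 1 and 3. The spread of IGHV1-64 between mice, a coefficient of variation of 3.51%, was the lowest of 58 genes with at least 50 clonotypes in each mouse. That of IGHV1-26 was 6.21%, and the median over the 58 genes was 8.05%. Counting error is smaller for genes with more clonotypes, and the pair was chosen for high use. This favours a low spread, so these ranks are a description without a test.

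**Figure D1:**
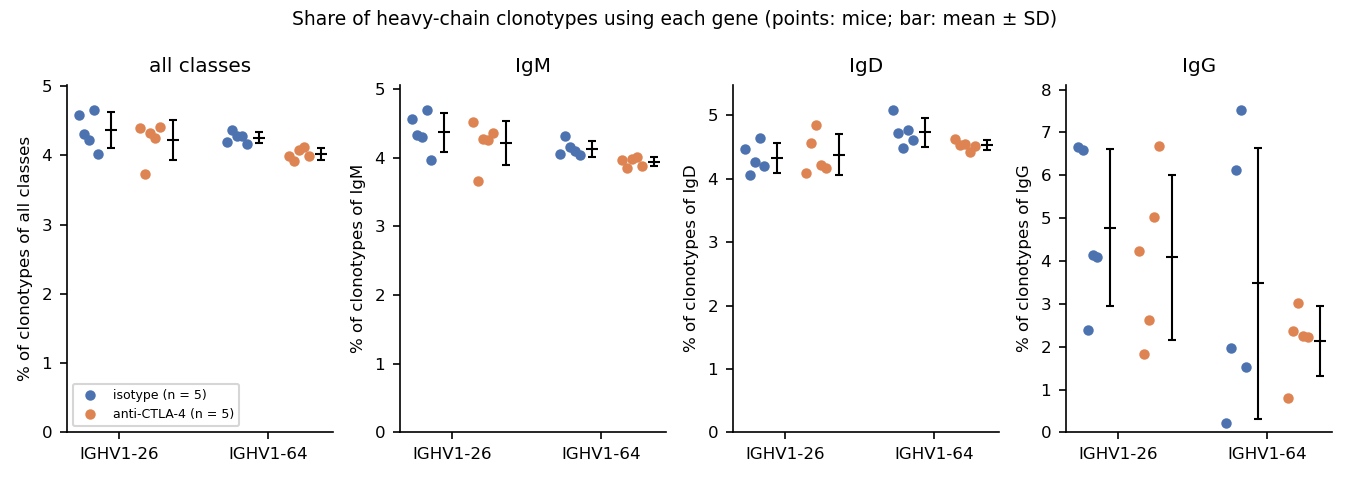
Share of clonotypes (%) using each gene, over all classes and within IgM, IgD and IgG, with 1 point per mouse and the mean ± SD of 5 mice beside each group. For IGHV1-64 the treated mice (3.91% to 4.12% over all classes) lie below the isotype mice (4.17% to 4.36%), while in IgG both genes vary widely in both groups.

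A first comparison asked if use of either gene differed after CTLA-4 blockade. IGHV1-64 took 4.26% ± 0.0757 (SD, n = 5) of clonotypes in isotype mice and 4.02% ± 0.0813 (SD, n = 5) in treated mice, a difference that did not pass the test across all genes. The log2 fold change was −0.07 ± 0.05 (SE), with an adjusted p of 0.633 by edgeR's quasi-likelihood test with Benjamini-Hochberg adjustment. For IGHV1-26 it was −0.03 ± 0.06 (SE), with an adjusted p of 0.934 by the same edgeR test. Neither member was called, against a background of 0 of 96 genes tested (0%), with 11 genes at an unadjusted p under 0.05 and 0 called by DESeq2. The shares of 3 of the 96 genes (3.12%) did not overlap between groups, and IGHV1-64 was among them. An exact permutation test of its share, added after the values were seen, gave a two-sided p of 0.00794, the smallest that 5 against 5 mice allow, and an adjusted p of 0.254 over the 96 genes.

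In IgM, IGHV1-64 again did not overlap between groups, with 4.13% ± 0.114 (SD, n = 5) of IgM clonotypes in isotype mice and 3.94% ± 0.0692 (SD, n = 5) in treated mice. That held for 3 of 92 genes (3.26%), and edgeR gave IGHV1-64 an adjusted p of 0.675. The edgeR test called 1 of the 92 genes (1.09%), and neither member. In IgD the log2 fold changes were 0.01 ± 0.06 (SE) for IGHV1-26 and −0.06 ± 0.05 (SE) for IGHV1-64, and 0 of 76 genes were called (0%) by edgeR or by DESeq2, with 3 at an unadjusted p under 0.05 in edgeR. The other IGHV1 genes showed no call in any class tested. Their median log2 fold change over all classes was 0.02 for 44 genes, beside 0.00 for all 96 genes.

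Use in IgG varied widely between mice. IGHV1-26 took 6.67%, 6.60%, 2.40%, 4.14% and 4.10% of IgG clonotypes in isotype mice 1 to 5, and 4.23%, 1.84%, 2.62%, 5.03% and 6.69% in the treated mice. IGHV1-64 took 0.230%, 1.97%, 6.13%, 7.52% and 1.54% in isotype mice, where 1 of 435 IgG clonotypes of mouse 1 used it. In treated mice it took 0.794%, 2.37%, 3.01%, 2.26% and 2.23%. The groups overlapped for both genes, and the high IGHV1-64 values belonged to isotype mice 3 and 4. The log2 fold change was −0.37 ± 0.64 (SE) for IGHV1-26 and −0.93 ± 0.81 (SE) for IGHV1-64, with adjusted p of 0.931 and 0.652 by edgeR's quasi-likelihood test. That test called 0 of 17 genes (0%), with 2 at an unadjusted p under 0.05, and DESeq2 called 0 of 16.

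The share of each gene among non-productive rearrangements, which cannot encode a receptor, is given beside its share among productive ones. IGHV1-26 took 2.90% ± 0.464 (SD, n = 10) of non-productive rearrangements named with 1 gene and 4.63% ± 0.260 (SD, n = 10) of productive ones. IGHV1-64 took 2.60% ± 0.504 (SD, n = 10) and 4.46% ± 0.141 (SD, n = 10). The non-productive value was the lower in 10 of 10 mice for both genes. The pair was chosen for high use among productive sequences of these mice, which favours that direction, so the values are a description without a test. The non-productive share of each gene's own rearrangements was 4.87% ± 0.636 (SD, n = 10) for IGHV1-26 and 4.57% ± 0.936 (SD, n = 10) for IGHV1-64, beside 6.68% ± 0.585 (SD, n = 10) for the other IGHV1 genes pooled. Productive rearrangements enter these shares too, so they are not tested against the family. Of 619 non-productive IGHV1-26 rearrangements 273 were out of frame, and of 574 for IGHV1-64 247 were.

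**Figure D2:**
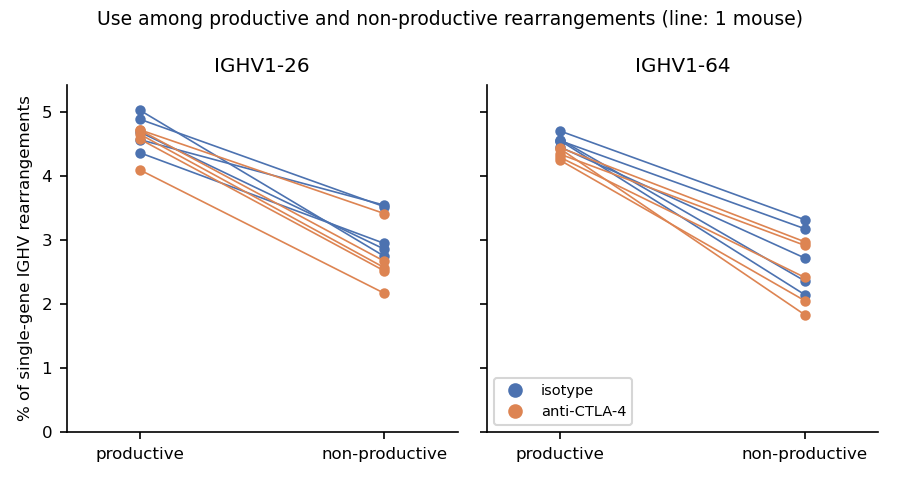
Share (%) of rearrangements with a single-gene IGHV call that used each gene, among productive and non-productive rearrangements, with 1 line per mouse. All 10 lines fall from left to right for both genes.

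The next question was how the pair differed within a mouse, over 15 measures tested together by two-sided exact permutation of the sign of the difference over 10 mice. Of these, 5 passed an adjusted p of 0.05, namely the IgM, IgD, IGHJ2 and IGHJ3 shares and the V bases lost. Among clonotypes with a deposited count of at least 2 all 5 kept their direction, but their adjusted p rose to between 0.156 and 0.885 (exact permutation test). Clonotypes of IGHV1-64 were IgD more often. IgD took 28.3%, 26.9%, 25.5%, 27.2% and 27.9% of IGHV1-64 clonotypes in isotype mice 1 to 5, against 22.8%, 23.5%, 24.5%, 24.4% and 26.3% of IGHV1-26 clonotypes. In treated mice 1 to 5 it took 26.4%, 23.9%, 26.5%, 31.6% and 27.4%, against 21.2%, 25.2%, 26.5%, 29.2% and 22.9%. IGHV1-64 was higher in 9 of 10 mice, treated mouse 2 being the exception, with a mean difference of 2.51 percentage points ± 2.22 (SD, n = 10) and an adjusted p of 0.0293 (exact permutation test). The IgM share was lower by 1.77 points, at 70.8% ± 1.56 (SD, n = 10) against 72.6% ± 1.98 (SD, n = 10), in 9 of 10 mice (exact permutation test, adjusted p = 0.0220). Without any 1 of isotype mice 1, 2, 4 or 5 or of treated mice 1, 4 or 5, the IgD difference stayed between 2.18 and 2.61 points while the adjusted p rose to 0.0586 (exact permutation test). Weighted by deposited counts, the IgD difference was 0.127 points with an adjusted p of 0.969 (exact permutation test).

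Against the other IGHV1 genes pooled, the IgD share was higher for IGHV1-64 by 1.66 points (9 of 10 mice, exact permutation test, adjusted p = 0.0130). For IGHV1-26 the difference in IgD share was −0.846 points, with an adjusted p of 0.285 (exact permutation test). Its IgM share was higher than that of the family by 1.13 points in 9 of 10 mice (exact permutation test, adjusted p = 0.0293). Leaving out isotype mouse 2 or 4 or treated mouse 1, 4 or 5 raised that adjusted p to between 0.0533 and 0.0586. At a count of at least 2 the IgM difference was 0.181 points (exact permutation test, adjusted p = 0.822). With joint calls counted by their first gene the adjusted p was 0.0901 (exact permutation test). Without rearrangements with more counts in another mouse it was 0.0645 by the same test. With CDR3 calls alone the call was kept.

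Switched clonotypes were few in both. IGHV1-26 had 249 IgG and 81 IgA clonotypes, and IGHV1-64 had 169 and 48. IgG took 2.10% ± 0.937 (SD, n = 10) of IGHV1-26 clonotypes and 1.56% ± 1.38 (SD, n = 10) of IGHV1-64 clonotypes, a difference that did not pass the test (exact permutation test, adjusted p = 0.413). By IgG gene, IGHV1-26 had 96 IGHG2B, 57 IGHG2C, 47 IGHG1 and 38 IGHG3 clonotypes. IGHV1-64 had 64 IGHG2B, 51 IGHG2C, 25 IGHG1 and 19 IGHG3 clonotypes, the same order. Clonotypes whose rearrangement had more counts in another mouse made up 8.84% of IGHV1-26 and 10.1% of IGHV1-64 IgG clonotypes, but 0.441% and 0.240% of their IgM clonotypes. Over all heavy-chain genes they made up 8.26% of IgG and 0.461% of IgM clonotypes, so the contrast between classes was not particular to the pair. The part of this overlap in the IgG values was examined by leaving such clonotypes out, which turned the IGHV1-26 log2 fold change in IgG to 0.07. For IGHV1-64 in IgG, the 6 alternatives that kept all mice, this one among them, gave −0.705 to −0.272. Each was smaller in size than the −0.93 of the main fit. Leaving out each mouse in turn gave −1.24 to −0.251.

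J genes differed between the pair. IGHJ2, the most used J gene of both, took 35.9% ± 2.02 (SD, n = 10) of IGHV1-64 clonotypes and 33.4% ± 1.42 (SD, n = 10) of IGHV1-26 clonotypes, and was higher for IGHV1-64 in 10 of 10 mice. The values were closest in isotype mouse 3, at 34.6% against 34.5%, and farthest apart in treated mouse 1, at 37.8% against 30.2%. IGHJ3 went the other way, with 23.4% ± 0.927 (SD, n = 10) for IGHV1-64 and 25.2% ± 1.27 (SD, n = 10) for IGHV1-26, and was lower in 10 of 10 mice. The exact permutation test gave both an adjusted p of 0.00977. IGHJ1 (14.3% and 14.8%) and IGHJ4 (26.4% and 26.7%) did not differ past the threshold. Against the rest of the family, only the IGHJ3 share of IGHV1-26 passed the test among the J genes of either member, higher by 1.10 points (exact permutation test, adjusted p = 0.0130). At a count of at least 2 that difference was 1.38 points (exact permutation test, adjusted p = 0.456). With 1 clonotype per lineage the IGHJ1 and IGHJ2 shares of IGHV1-64 passed too, at −1.16 and 1.88 points. Within the pair, IGHV1-64 minus IGHV1-26, weighting by deposited counts turned the signs of the IGHJ2 and IGHJ3 differences. They became −6.24 points for IGHJ2 and 8.31 for IGHJ3 (exact permutation test, adjusted p = 0.694 for both). In IgM clonotypes alone the IGHJ2 difference within the pair was 2.27 points, with an adjusted p of 0.0732 (exact permutation test).

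At the V end of the joint, IGHV1-64 had lost more bases. Loss was counted from the V end that is most common among clonotypes of a gene without a V mismatch. The mean loss per clonotype in isotype mice 1 to 5 was 0.600, 0.601, 0.558, 0.644 and 0.597 bases for IGHV1-64, and 0.556, 0.547, 0.548, 0.524 and 0.566 bases for IGHV1-26. In treated mice 1 to 5 it was 0.638, 0.869, 0.692, 0.605 and 0.672 bases, against 0.610, 0.583, 0.578, 0.572 and 0.541 bases. IGHV1-64 was higher in 10 of 10 mice, by 0.0852 bases ± 0.0829 (SD, n = 10), with an adjusted p of 0.00977 (exact permutation test). The other IGHV1 genes lost 0.523 bases ± 0.0107 (SD, n = 10), less than either member in 10 of 10 mice (exact permutation test, adjusted p = 0.00837 for both). The high value of treated mouse 2 contained the gene's largest lineage, of 21 clonotypes. With 1 clonotype per lineage, an alternative added after seeing the data, the difference within the pair was 0.0872 bases and kept its call. Counting joint calls by their first gene, IGHV1-26 lost 0.0277 bases more than the family, with an adjusted p of 0.0692 (exact permutation test). At a count of at least 2 it lost 0.0450 bases more than the family, with an adjusted p of 0.306 by the same test.

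**Figure D3:**
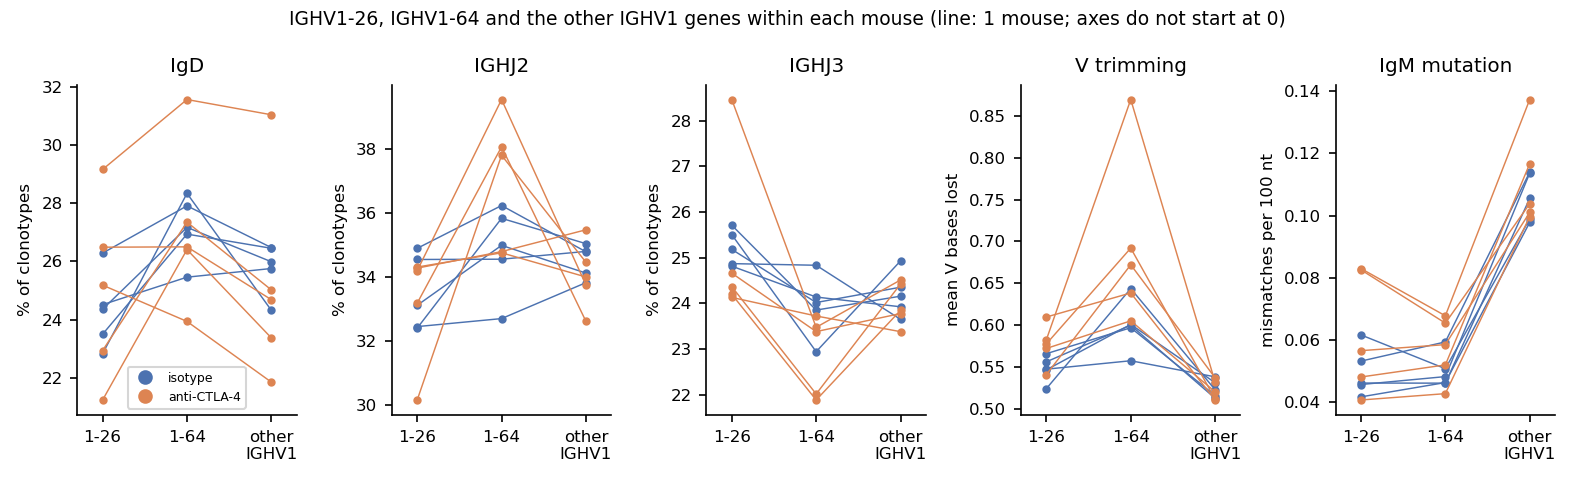
IgD, IGHJ2 and IGHJ3 shares of clonotypes (%), mean V bases lost and mismatches per 100 V nucleotides in IgM clonotypes, for IGHV1-26, IGHV1-64 and the other IGHV1 genes pooled, with 1 line per mouse. The lines for IGHJ2 and V bases lost rise from IGHV1-26 to IGHV1-64 in all 10 mice, those for IGHJ3 fall, and IgM mismatches of both genes lie below the pooled family.

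The mean CDR3 length was 11.73 amino acids ± 0.0792 (SD, n = 10) for IGHV1-26 and 11.76 ± 0.104 (SD, n = 10) for IGHV1-64, a difference of 0.0337 amino acids ± 0.110 (SD, n = 10) that did not pass the test (exact permutation test, adjusted p = 0.442). Length went with the J gene, which brings part of the loop, with a mean of 13.0 amino acids for IGHV1-26 with IGHJ1 and 10.8 with IGHJ2. For IGHV1-64 the same means were 12.9 and 10.9 amino acids. IGHD1-1 was the most common D gene of both, in 28.8% ± 1.75 (SD, n = 10) of IGHV1-26 and 30.8% ± 1.45 (SD, n = 10) of IGHV1-64 clonotypes with a D call, followed by IGHD2-4 at 12.0% and 11.2%. Comparisons of D genes were not tested.

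IgM clonotypes of both genes carried few V mismatches against germline. IGHV1-26 had 0.0559 ± 0.0156 and IGHV1-64 had 0.0537 ± 0.00859 mismatches per 100 nucleotides (SD, n = 10), while the other IGHV1 genes had 0.109 ± 0.0121. Both members were lower in 10 of 10 mice (exact permutation test, adjusted p = 0.00837 for both), and the difference within the pair had an adjusted p of 0.494. With V positions mismatched in over 50% of a gene's IgM clonotypes left out, of which neither member had any, the differences from the family were −0.0343 for IGHV1-26 and −0.0365 for IGHV1-64 and kept their calls, where they had been −0.0529 and −0.0551. Of IgM clonotypes, 87.5% for IGHV1-26 and 86.8% for IGHV1-64 had no mismatch. IgG clonotypes had 0.542 ± 0.299 and 0.974 ± 1.07 mismatches per 100 nucleotides (SD, n = 10), with the largest value, 3.72, from the lone IGHV1-64 IgG clonotype of isotype mouse 1. The difference did not pass the test (exact permutation test, adjusted p = 0.371).

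The positions most often mutated in switched clonotypes were only partly the same in both genes. Positions count from 1 at the first base of the V segments printed above, and the first base of each change is the germline base. In IGHV1-26, position 176, just after CDR2 and 1 of the bases that differ between the genes, was mismatched in 15.7% of 331 switched clonotypes, from 23 of 127 lineages and 9 mice. The most common change there was G176T, which replaces the amino acid. In IgM clonotypes the same position was mismatched in 0.261%. In IGHV1-64, which has another germline base there, it was mismatched in 3 of 69 switched lineages.

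The leading position of IGHV1-64 was 197, also in framework 3, with G197A the most common change. It was mismatched in 12.8% of 219 switched clonotypes, from 14 of 69 lineages and 8 mice, and in 0.0483% of IgM clonotypes. In IGHV1-26 this position was mismatched in 3 of 127 lineages. Next came position 92 in CDR1 and position 170 in CDR2, each mismatched in 9 lineages of IGHV1-64. G92A made up 9 of the 15 clonotypes mismatched at the former and G170A 7 of the 14 at the latter. CDR1 position 92 was mismatched in 0 of 331 switched IGHV1-26 clonotypes, and the germline base differs there. With clonotypes taken as independent, this allows a share of up to 0.906%. They came from only 127 lineages, so the true limit is wider. Position 170 was among the leading positions of both genes, at 6.34% of IGHV1-26 and 6.39% of IGHV1-64 switched clonotypes. The remaining leading changes of IGHV1-26 were G30A, G246A and G148A, and those of IGHV1-64 were G289A, from 2 lineages, and G230C. G30A and G246A leave the amino acid unchanged. Position 30 was mismatched in both genes, in 12 of 127 switched lineages of IGHV1-26 and 6 of 69 of IGHV1-64. CDR1 and CDR2 together hold 16.3% of the V bases and took 19.0% of mismatches in IGHV1-26 and 25.5% in IGHV1-64. Clonotypes of a lineage share mutations, so these shares are descriptions and were not tested.

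**Figure D4:**
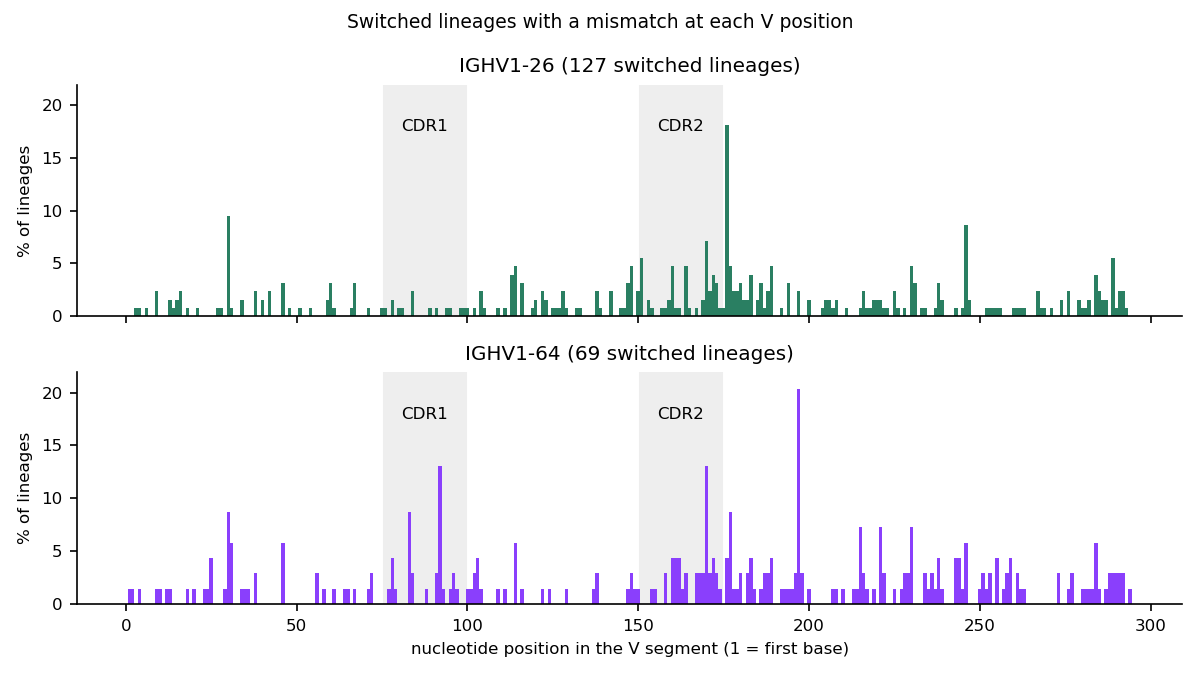
Share (%) of switched lineages with at least 1 mismatch at each nucleotide of the V segment, for IGHV1-26 (127 lineages) and IGHV1-64 (69 lineages), with CDR1 and CDR2 shaded. The tallest bar lies at position 176 for IGHV1-26 (18.1% of lineages) and at position 197 for IGHV1-64 (20.3%).

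Most clonotypes of the pair had a deposited count of 1. IGHV1-26 clonotypes with a count of 1 made up 66.9% ± 9.74 (SD, n = 10) and those of IGHV1-64 66.4% ± 10.8 (SD, n = 10). The share of clonotypes with a count of at least 10 was 1.70% ± 0.800 (SD, n = 10) for IGHV1-26 and 1.04% ± 0.770 (SD, n = 10) for IGHV1-64, lower in 8 of 10 mice, which did not pass the adjusted threshold (exact permutation test, p = 0.0332, adjusted p = 0.0830). It passed in IgM clonotypes alone, with a difference of −0.427 points (exact permutation test, adjusted p = 0.0146). It passed too with 1 clonotype per lineage (−0.542 points, exact permutation test, adjusted p = 0.00977). Without isotype mouse 3 the difference was −0.828 points with an adjusted p of 0.0293 (exact permutation test). With a count of at least 5 or 20 as threshold the adjusted p was 0.156 and 0.190 (exact permutation test). Among clonotypes with a count of at least 2, the share at a count of at least 10 had an adjusted p of 0.156 by the same test.

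The largest clonotype of either gene was an IgA clonotype of IGHV1-64 in treated mouse 4. Its count of 23584 was 90.5% of the gene's counts, 12.4% of all heavy-chain counts and 22.0% of IgA counts in that mouse, and its V segment had no mismatch. An IGHV1-64 IgA clonotype with a count of 10659 and no V mismatch led isotype mouse 3, and the same junction led in isotype mouse 4 with a count of 1140. In isotype mouse 5 the leader was an IgE clonotype with 5 mismatches and a count of 1608, which was 99.2% of that mouse's IgE counts. For IGHV1-26, an IgA clonotype with a count of 3952 and 4 mismatches led treated mouse 5, and an IGHG2C clonotype with a count of 3880 and 5 mismatches led isotype mouse 1, in a lineage of 16 clonotypes that held IgG and IgA. The most counted clonotype of a mouse held 27.6% ± 15.8 (SD, n = 10) of the counts of IGHV1-26 and 41.2% ± 21.5 (SD, n = 10) of those of IGHV1-64. It was IgA in 7 of 10 mice for IGHV1-26 and in 6 of 10 for IGHV1-64. The leaders of other genes were not compared, and the part of IgA in all heavy-chain counts varied between mice. The count of 1140 in isotype mouse 4 was 0.529% of heavy-chain counts and 0.835% of IgA counts, so IgA held most counts there. The leading IGHV1-64 IgA clonotype of treated mouse 1 was 0.229% and 21.9%, so IgA held few there. The junctions of these clonotypes are printed because each led its gene's counts in a mouse, with capitals for bases that the files list between the V, D and J segments.
IGHV1-64 IgA, anti-CTLA-4 mouse 4: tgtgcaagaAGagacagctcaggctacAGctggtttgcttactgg
IGHV1-64 IgA, isotype mice 3 and 4: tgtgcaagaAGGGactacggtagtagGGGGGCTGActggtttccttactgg
IGHV1-64 IgE, isotype mouse 5: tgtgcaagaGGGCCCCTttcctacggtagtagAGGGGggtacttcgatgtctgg
IGHV1-26 IgA, anti-CTLA-4 mouse 5: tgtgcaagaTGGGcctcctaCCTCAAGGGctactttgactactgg
IGHV1-26 IGHG2C, isotype mouse 1: tgtgcaagaTACTCCCCtgactattgg

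Shares of counts varied between mice with these clonotypes. IGHV1-64 took 13.7% of heavy-chain counts in treated mouse 4 and 0.566% to 3.00% in the other treated mice, with 0.923% to 5.97% in isotype mice. IGHV1-26 took 5.16% in treated mouse 5 and 0.998% to 1.75% in the other treated mice, with 1.42% to 4.94% in isotype mice. With deposited counts in place of clonotypes, the log2 fold change of IGHV1-64 turned to 0.55, with an adjusted p of 0.743 by edgeR's quasi-likelihood test.

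**Figure D5:**
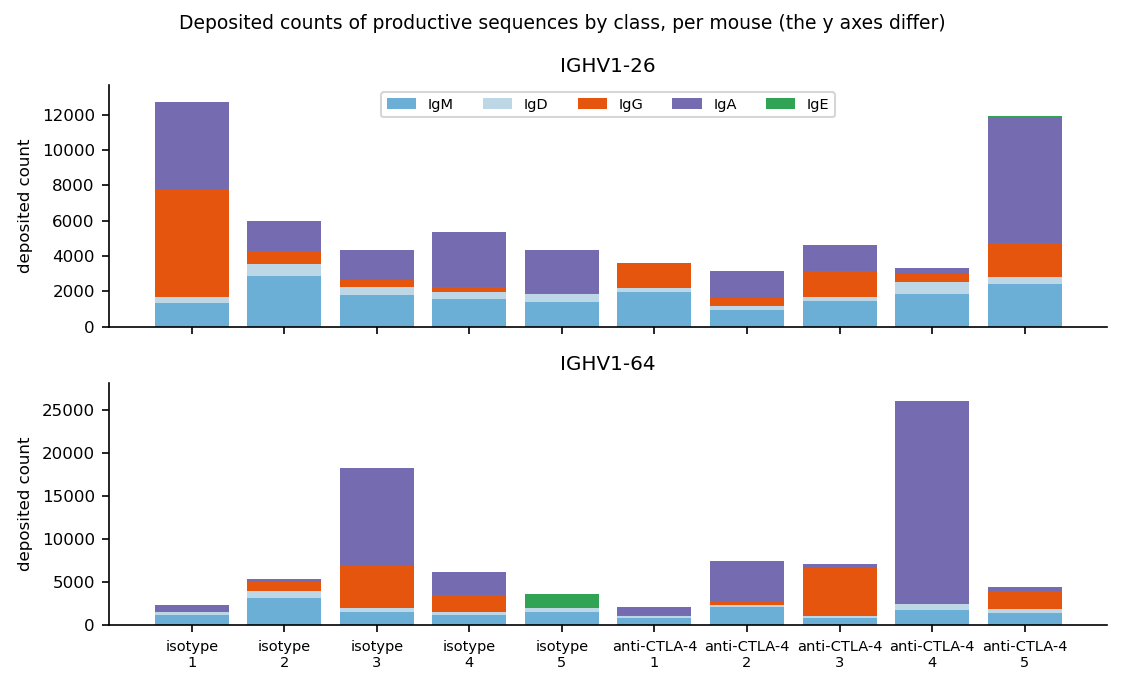
Deposited counts of productive sequences of IGHV1-26 (top) and IGHV1-64 (bottom) in each mouse, stacked by class, with y axes of different height. IgA fills most of the tallest bar, IGHV1-64 in anti-CTLA-4 mouse 4, while IgE appears as a visible block only for IGHV1-64 in isotype mouse 5.

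Clonotypes were grouped into lineages where V gene, J gene and junction length were equal and junctions were at least 90% identical. IGHV1-26 formed 10776 lineages, of which 127 held a switched class, and IGHV1-64 formed 10544, of which 70 did. IgM or IgD members accompanied 44.1% of the switched IGHV1-26 lineages and 30.0% of those of IGHV1-64. IgG and IgA occurred together in 14 and 6 lineages. The number of clonotypes per lineage was 1.13 ± 0.0241 for IGHV1-26 and 1.12 ± 0.0286 for IGHV1-64 (SD, n = 10), against 1.10 ± 0.0184 in the other IGHV1 genes. IGHV1-26 was higher than the family in 10 of 10 mice and IGHV1-64 in 9 of 10. The rule chose the pair by its number of clonotypes, which enters this ratio, so it is given without a test.

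Few rearrangements were found in more than 1 mouse, with 84 of 11898 (0.706%) for IGHV1-26 and 58 of 11512 (0.504%) for IGHV1-64. These include rearrangements with very unequal counts. The IGHV1-26 junction of isotype mouse 1 printed above had counts from 3 to 6564 over 3 isotype mice. The IGHV1-64 junction of isotype mice 3 and 4 had counts of 11543 and 1430 there. Why rearrangements were found in more than 1 mouse was not tested. The most widespread, in 4 mice, was a short IGHV1-64 junction in IgM and IgD with counts from 1 to 5, found in 2 mice of each group. A junction of IGHV1-26 with IGHD4-1 and IGHJ2, in 3 mice, had no base between its segments. They are shown as examples of joints with few or no added bases, with capitals as for the junctions above.
IGHV1-64 with IGHJ2, 4 mice: tgtgcaagaGAGgactactgg
IGHV1-26 with IGHD4-1 and IGHJ2, 3 mice: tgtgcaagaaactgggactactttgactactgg

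Between treatment groups, 6 measures of each gene were compared by an exact permutation test over all reassignments of the mice, and none of 12 passed. The smallest p, 0.0714, belonged to the CDR3 length of IGHV1-64, at 11.71 amino acids ± 0.126 (SD, n = 5) in treated and 11.82 ± 0.0252 (SD, n = 5) in isotype mice (exact permutation test, adjusted p = 0.714). IgG took 3.42%, 2.59%, 2.98%, 1.18% and 2.58% of IGHV1-26 clonotypes in treated mice 1 to 5, against 2.52%, 2.64%, 1.34%, 1.01% and 0.735% in isotype mice. The groups overlapped (exact permutation test, p = 0.119, adjusted p = 0.714). For IGHV1-64 the IgG share was 1.81% ± 1.49 (SD, n = 5) in treated and 1.30% ± 1.38 (SD, n = 5) in isotype mice (exact permutation test, adjusted p = 0.848). The within-mouse difference of the pair was also compared between groups for the same 6 measures, and each had an adjusted p of 0.690 (exact permutation test). The IgD share, for example, was higher for IGHV1-64 by 2.15 points ± 2.76 (SD, n = 5) in treated and 2.87 points ± 1.77 (SD, n = 5) in isotype mice.

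The genes whose use varied over the 10 mice most like IGHV1-26 were IGHV1-75, IGHV1-81 and IGHV1-39, by the root mean square difference of centred log2 shares (0.07, 0.07 and 0.08, against a median of 0.14 over 57 genes). For IGHV1-64 they were IGHV1-39, IGHV1-81 and IGHV1-53 (0.06, 0.06 and 0.07, against a median of 0.13). All shares of a mouse have 1 library and 1 total in common, and genes with little spread lie close to many others by this measure.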

How the data were processed

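Heavy- and light-chain libraries were made from RNA of whole node cells with a mouse B cell receptor kit that adds molecular identifiers, per the labels' protocols. The authors deposited 1 AIRR table per mouse, with V, D, J and constant gene calls, alignments and a whole-number count per sequence, per the file headers. The aligner, the germline set and the meaning of a count (read or molecule) are not given in the sources used. The counts were deposited without visible normalisation by the authors. The members and lists were chosen with earlier results of these data known.

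All productive heavy-chain rows were kept, including those without a CDR3 call, which were left out of CDR3 lengths alone. Names matched the GRCm38.p6 gene table (113 of 113). V mismatches were counted over at least 200 aligned nucleotides in the most counted sequence of a clonotype. IGHG2A and IGHG2C calls were joined as IGHG2C. Germline segments were read from the alignments in the tables.

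Use was tested on clonotype numbers with edgeR 4.0.16 (glmQLFit and glmQLFTest, TMM, filterByExpr) in R 4.3.3, with DESeq2 1.42.0 as an alternative and an adjusted p of 0.05 as threshold. Standard errors came from the F statistic. Per-mouse values were compared by two-sided exact permutation tests (NumPy 2.4.6), with Benjamini-Hochberg adjustment over 15, 30, 12 or 6 tests. Tests that draw on use among productive sequences (non-productive against productive use, the non-productive share and clonotypes per lineage against the family) were run as planned but are not reported as evidence, because the pair was chosen by that use. Those of the non-productive share and of clonotypes per lineage stayed among the 30 tests against the family. Small p-values among them lowered other adjusted p-values against the family. Mice are separate animals, so p-values measure the spread between them. The fit was tested on simulated data, where it called 20 of 20 changed genes and 0 others among 95. Whether it would call differences as small as those of the pair was not tested. Named items were the pair, the 3 genes most like each, the most counted clonotype of each mouse, the 3 junctions in most mice and the 5 V positions most often mismatched in switched clonotypes. The examples printed here are part of those. Alternatives were a minimum count, other tests and filters, joint calls, IgM alone, counts as weights, masked positions, other thresholds and identities, a fit with the replicate number as a block and fits without each mouse.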

Additional observations from a re-analysis of the deposited data

Results flagged for a closer look

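In 68 sets of 5 mice (each gene, group and measure), 6 held a mouse far from the other 4 by Dixon's test at 95%, which chance alone would give in about 1 in 20 sets. For IGHV1-26 in treated mice, mouse 1 had an IGHJ2 share of 30.2% (the others 33.2% to 34.3%) and an IGHJ3 share of 28.5% (24.1% to 24.7%). Treated mouse 2 had 3.73% of clonotypes in IGHV1-26 (4.25% to 4.41%), and treated mouse 5 had 5.16% of counts in it (0.998% to 1.75%). For IGHV1-64, treated mouse 1 had 1.07 clonotypes per lineage (1.12 to 1.13), and treated mouse 4 had 13.7% of counts (0.566% to 3.00%). The count shares of treated mice 5 and 4 held clonotypes of 3952 and 23584 counts, given above.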

How the results depend on the processing

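Direction and side of the threshold were kept in 355 of 404 comparisons of a result with an alternative setting, and in 716 of 770 that left out 1 mouse. The cause of the other changes was not tested. Use of either gene was called under no alternative. Numbers of IGHV genes past the threshold over all classes were 1 without TMM factors, 3 without a filter and 4 with the replicate block, against 0; in IgM they were 0 at a count of at least 2, 4 with the replicate block and 0 by the permutation test, against 1. Same-numbered mice of the groups shared only a number: the correlations of their deviations ran from 0.0111 to 0.219, mice 2, 3 and 4 were closest to their own number, and the block called neither gene. Log2 fold changes that turned sign were 0.55 for IGHV1-64 with deposited counts and 0.0709 for IGHV1-26 in IgG once rearrangements with higher counts elsewhere were left out. At a count of at least 2, IGHV1-64 was not testable in IgG.
Values are in percentage points unless named otherwise. At a count of at least 2, with far fewer clonotypes, IGHV1-64 minus IGHV1-26 was −0.226 for IgM, 2.05 for IgD, 0.711 for IGHJ1, 2.65 for IGHJ2, −3.14 for IGHJ3, 0.0831 for the non-productive share, 0.116 V bases lost and 0.00305 IgM mismatches per 100 nucleotides. IGHV1-26 minus the family was then 0.181 for IgM, 1.38 for IGHJ3, 0.0173 clonotypes per lineage and 0.0450 V bases lost, and IGHV1-64 minus the family was −0.00813 clonotypes per lineage. Treated minus isotype was −1.09 for IgD and 0.0608 for the non-productive share of IGHV1-26, 0.441 for the non-productive share of IGHV1-64 and 0.144 for the pair's difference in IgG mismatches. Without rearrangements with higher counts elsewhere, IGHV1-26 minus the family was 1.12 for IgM. With joint calls counted by their first gene it was 0.956 for IgM and 0.0277 V bases lost, and CDR3 length of IGHV1-64 minus the family was −0.0294 amino acids. In IgM alone, IGHV1-64 minus IGHV1-26 was 2.27 for IGHJ2, 0.122 for IGHJ4 and −0.427 for counts of at least 10; IGHV1-26 minus the family was −0.833 for IGHJ2, and IGHV1-64 minus the family −0.367 for counts of at least 10. Weighted by counts, IGHV1-64 minus IGHV1-26 was −6.27 for IgM, 0.127 for IgD, 3.71 for IgG, −6.24 for IGHJ2 and 8.31 for IGHJ3. With 1 clonotype per lineage it was −0.0244 amino acids of CDR3 and −0.542 for counts of at least 10; IGHV1-26 minus the family was −0.00107 for IGHJ4 and 0.0293 amino acids, and IGHV1-64 minus the family −1.16 for IGHJ1, 1.88 for IGHJ2, −0.100 for IGHJ4 and −0.333 for counts of at least 10. Without both mice numbered 4, an alternative added later, IGHV1-64 minus IGHV1-26 was −1.49 for IgM and 2.48 for IgD.
Leaving out each mouse in turn, IGHV1-64 minus IGHV1-26 ranged from 2.18 to 2.93 for IgD, −0.626 to 0.0597 for IGHJ4 and −0.828 to −0.533 for counts of at least 10. IGHV1-26 minus the family ranged from 0.885 to 1.29 for IgM and −0.151 to 0.0175 IgG mismatches. IGHV1-64 minus the family ranged from −0.134 to −0.0803 for IgA, −1.53 to −0.862 for IGHJ1, −0.00188 to 0.0423 amino acids, 0.0177 to 0.0277 clonotypes per lineage and −0.590 to −0.345 for counts of at least 10. Treated minus isotype ranged from −0.335 to 1.65 for IgD of IGHV1-26, and for IGHV1-64 from −1.11 to 0.792 for IgD, −0.0581 to 0.440 for counts of at least 10 and −0.435 to 0.149 for the non-productive share. For the pair's difference it ranged from −1.47 to 0.132 for IgD, −0.918 to 0.199 for IgG, −0.656 to 0.00870 for counts of at least 10, −0.764 to 0.0742 IgG mismatches and −0.00630 to 0.585 for the non-productive share. Log2 fold changes of IGHV1-26 ranged from −0.0781 to 0.00909 over all classes, −0.0125 to 0.0355 in IgD and −0.60 to 0.35 in IgG. Genes past the threshold numbered 0 to 1 over all classes and 0 to 3 in IgM.
With 8 to 47 IgG clonotypes of IGHV1-26 and 1 to 46 of IGHV1-64 per mouse, IgG shares and mismatches of the pair are coarse.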

Other observations

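IgA held 37.2% ± 20.2 (SD, n = 10) of IGHV1-26 counts and 35.1% ± 30.4 (SD, n = 10) of IGHV1-64 counts, ranging from 0% to 60.0% and from 0% to 90.6% over mice. IgG held 19.0% ± 15.4 (SD, n = 10) and 22.7% ± 25.8 (SD, n = 10), with the highest value, 79.1%, for IGHV1-64 in anti-CTLA-4 mouse 3. No IGHV1-26 IgA clonotype was found in anti-CTLA-4 mouse 1, which had 35 IgA clonotypes (a share of up to 8.57% is allowed), nor an IGHV1-64 IgA clonotype in isotype mouse 5, which had 116 (up to 2.59%). These limits cover counting error only. All 5 IgE clonotypes of isotype mouse 5 used IGHV1-64. These values were not tested, and the class shares of counts over all genes were not set beside them.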
